A study of Mus musculus with 4 samples.

Results

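Chemokines of the crypt epithelium were examined in laser-captured mouse Paneth cells. The members were the genes Cxcl1, Cxcl2, Cxcl10, Cxcl12, Cxcl16, Ccl6, Ccl20, Ccl25, Ccl28 and Cx3cl1, and every probe set annotated with one of these 10 symbols was taken, which gave 22 of the 45037 probe sets of the array. The series held 4 arrays, 2 from Atg16 hypomorph mice, which carry an allele of reduced function, and 2 from wildtype mice, all on a mixed C57BL/6 and 129ola background. Atg16l1 encodes a protein needed to build autophagosomes. How the allele was made, the age and sex of the mice, and whether 2 arrays of one group stem from 2 animals are not stated, so the p-values reflect the spread of these samples alone, and that spread may be technical. Each value is a deposited linear intensity. Each difference is the mean of hypomorph less that of wildtype after log2(intensity + 32), a scale that compresses changes of dim probe sets.

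Chemokines are small secreted or membrane-tethered proteins that draw leukocytes along a gradient by binding G protein-coupled receptors. Those made by the gut epithelium have separate audiences: Cxcl1 and Cxcl2 call neutrophils through Cxcr2, Cxcl10 calls activated T cells through Cxcr3, Ccl25 brings Ccr9-bearing lymphocytes to the small intestine, Ccl28 attracts Ccr10-bearing plasma cells, and Ccl20 attracts Ccr6-bearing cells to lymphoid follicles. Many are switched on by the NF-kB or interferon pathways, and several, Ccl28 among them, can also kill microbes.

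The upstream sequences of Cxcl1, Cxcl2, Cxcl10 and Ccl28 are shown first, because the neighbouring genes Cxcl1 and Cxcl2 share a short stretch there. RefSeq windows (build GRCm38.p6) were found for 9 of the 10 members and not for Cxcl16. The 250 bases before the transcript start are printed 5′ to 3′ in the direction of transcription. They lie at chr5:90890995-90891244 (forward strand) for Cxcl1, chr5:90903649-90903898 (forward strand) for Cxcl2, chr5:92348890-92349139 (reverse strand) for Cxcl10 and chr13:119623569-119623818 (forward strand) for Ccl28. Capitals mark the longest run that the Cxcl1 and Cxcl2 windows have in common, and matches on either strand to a kB motif (GGG, 2 free bases, TT, 1 free base, CC), to the core of the interferon-stimulated response element (GAAA repeated after 2 free bases) or to the AP-1 motif (TGANTCA).
Cxcl1: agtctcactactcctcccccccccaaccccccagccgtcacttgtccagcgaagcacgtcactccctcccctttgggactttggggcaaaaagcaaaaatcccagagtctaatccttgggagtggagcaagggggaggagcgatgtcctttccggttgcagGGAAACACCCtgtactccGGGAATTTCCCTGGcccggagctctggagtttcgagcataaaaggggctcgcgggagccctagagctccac
Cxcl2: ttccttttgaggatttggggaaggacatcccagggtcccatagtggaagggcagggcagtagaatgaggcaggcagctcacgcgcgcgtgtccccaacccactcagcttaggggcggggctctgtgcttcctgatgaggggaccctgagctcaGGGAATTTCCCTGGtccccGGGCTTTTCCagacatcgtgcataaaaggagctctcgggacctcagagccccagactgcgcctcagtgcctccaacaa
Cxcl10: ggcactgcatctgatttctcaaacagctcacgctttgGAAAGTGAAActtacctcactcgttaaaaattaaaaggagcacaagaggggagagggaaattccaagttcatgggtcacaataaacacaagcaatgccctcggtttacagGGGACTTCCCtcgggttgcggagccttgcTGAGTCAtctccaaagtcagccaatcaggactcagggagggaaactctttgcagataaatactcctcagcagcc
Ccl28: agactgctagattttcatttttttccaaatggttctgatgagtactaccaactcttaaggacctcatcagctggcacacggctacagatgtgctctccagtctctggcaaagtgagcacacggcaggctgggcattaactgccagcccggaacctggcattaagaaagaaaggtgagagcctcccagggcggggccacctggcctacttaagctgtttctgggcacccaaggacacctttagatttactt
The longest run in common, picked for being shared, was 14 bases, GGGAATTTCCCTGG, which begins with a match to the kB motif. It stood 71 to 58 bases before the start of Cxcl1 and 97 to 84 bases before that of Cxcl2, and of 32851 RefSeq windows of this length these 2 alone held it. Both windows held a further match to the kB motif, which was present in 4.11% of all windows. The Cxcl10 window held the kB motif, the interferon-stimulated response core (2.98% of all windows) and the AP-1 motif (6.75%). The Ccl20 window, not printed, held overlapping matches to the kB motif. None of these motifs was found in the windows of the other 5 members, Ccl28, Cxcl12, Ccl6, Ccl25 and Cx3cl1. A match is a description of letters, not of a bound site, and its absence says only that these letters are not in this window.

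The labels and tissue were checked against marker genes. Atg16l1 read 966 and 995 in hypomorph against 1335 and 1183 in wildtype (log2 difference -0.35, SE 0.10, limma adjusted p = 0.102). The position of its probes relative to the hypomorphic lesion is not stated. The Paneth cell markers were bright, with Lyz1 between 14561 and 16021, and of 6 tested 1 rose (Reg3g), a call that ended in 3 of the 4 fits that left out an array (all but the one without hypomorph replicate 1), with no brightness filter and without an intensity trend. The other 5 Paneth cell markers had differences below 0 and were not called. Of these, Ang4 (-0.14), Itln1 (-0.10) and Lyz1 (-0.087) read lower without overlap of the groups. Of the 6 Paneth cell markers 3 had an unadjusted p under 0.05 (limma), against 20.5% of all tested probe sets. Among all genes tested, by their brightest probe set, 4.23% were called. Markers of other cells moved between the groups: 6 of 6 tested fat cell markers and 6 of 6 tested enterocyte markers rose. Of the fibroblast markers 3 of 8 and of the T and NK cell markers 2 of 6 rose, while 4 of 7 enteroendocrine markers fell. Among 7 myeloid markers 0 were called (limma, 2 at an unadjusted p under 0.05). Among 6 goblet cell and 5 endothelial cell markers 0 were called (limma, 3 and 1 at an unadjusted p under 0.05). The enteroendocrine count became 2 without wildtype replicate 1, 0 with no brightness filter and 1 without an intensity trend. The fibroblast count became 1 without hypomorph replicate 2, without wildtype replicate 2, with no brightness filter and without an intensity trend. With the stricter filter only 3 fat cell markers were tested, and all 3 were called. Xist, which is expressed from the inactive X chromosome of female cells, read 4414 and 4509.9 in hypomorph against 18.0 and 25.6 in wildtype, so genotype and this difference cannot be told apart in any comparison of the groups.

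Hypomorph was compared with wildtype to ask how chemokine transcript levels in the captured tissue differed between the groups. The neutrophil attractant Cxcl1 rose about 1.99-fold on its brightest probe set, and the plasma cell attractant Ccl28 fell to 0.674 of the wildtype level on its brightest probe set. The probe sets of Ccl6, Ccl25, Cxcl10, Cxcl12 and Cxcl16 that were bright enough to test were not called, and those of Cxcl2, Ccl20 and Cx3cl1 were all too dim to test. Of the 22 probe sets 13, from 7 genes, passed the brightness filter, a mean log2 value of at least 6.32. Of these 13, limma called 1 higher and 1 lower at an adjusted p under 0.05. Over all 22519 probe sets tested, 3.71% were called, 2.04% higher and 1.67% lower. With 1 probe set per gene, the brightest, 2 of 7 members were called, against 4.23% of 11577 genes. The median difference of these 7 members was -0.11, against -0.024 over all genes tested. An unadjusted p under 0.05 was found for 6 of the 13, against 20.5% of all. Groups that did not overlap were seen in 9 of the 13 tested probe sets, against 51.8% of all tested probe sets. The arrays hold captured tissue in bulk, so fewer cells of a type and less RNA per cell cannot be told apart.

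**Figure D1:**
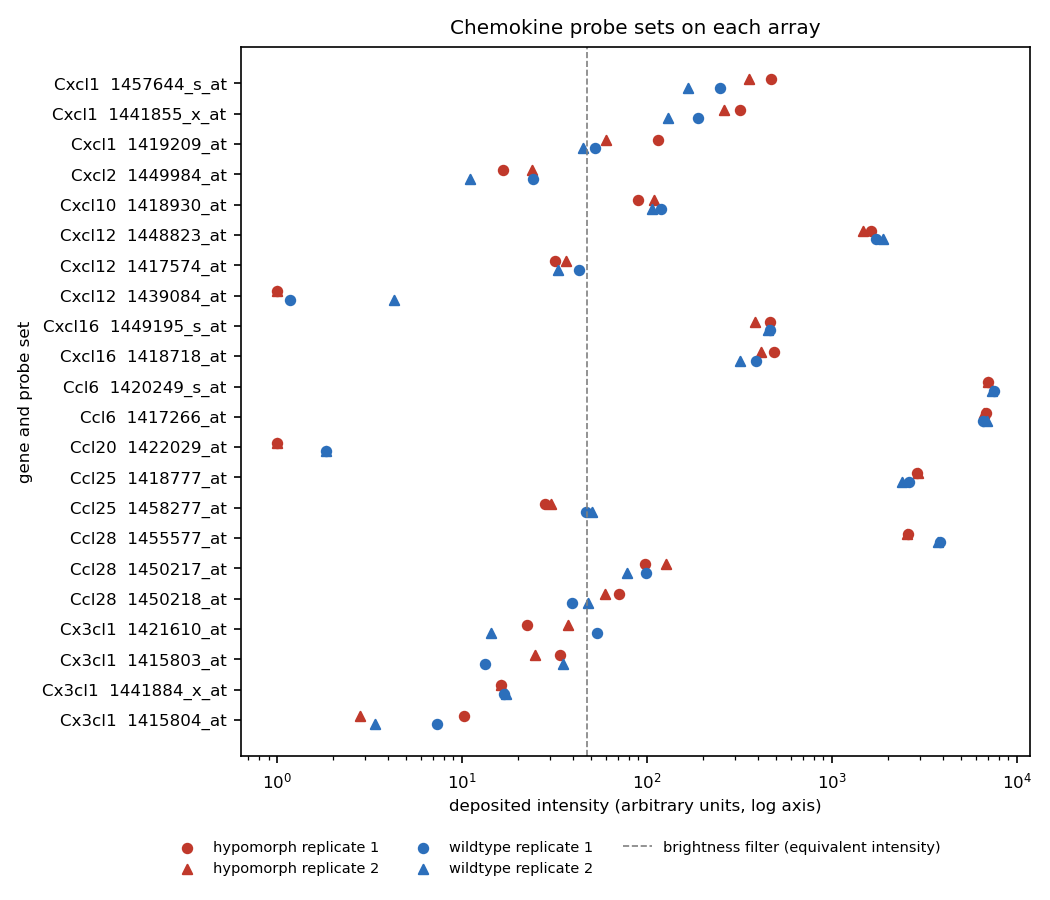
Deposited intensity (log axis) of the 22 chemokine probe sets on each array, with hypomorph arrays in red, wildtype arrays in blue and the brightness filter, a mean equivalent to an intensity of 47.7, as a dashed line. Ccl6 read 6579 or more on all 4 arrays, while Ccl20 stayed below 2 and the 4 Cx3cl1 probe sets stayed near or below the line.

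Among the neutrophil attractants, Cxcl1 read 469 and 357 in hypomorph and 247 and 168 in wildtype with its brightest probe set, 1457644_s_at. Both hypomorph arrays lay above both wildtype arrays. The log2 difference was 0.90 (SE 0.19, 95% interval 0.47 to 1.34), which passed the threshold (limma, adjusted p = 0.0356). The probe set 1441855_x_at read 318 and 261 against 188 and 129, again without overlap, and its difference of 0.76 (SE 0.19) missed the threshold (limma, adjusted p = 0.0564). It was called in 4 of 12 alternatives: with a robust prior (adjusted p = 0.0427), with a replicate block (6.90e-05), without hypomorph replicate 2 (0.0329) and without wildtype replicate 1 (0.0281), within a range of 6.90e-05 to 0.294. The third, 1419209_at, read 115 and 60.4 against 52.7 and 45.1, a difference of 0.53 (SE 0.22, limma adjusted p = 0.218), and was called in 2 of 12 alternatives, with a replicate block (adjusted p = 0.0349) and without hypomorph replicate 2 (0.0243), within a range of 0.0243 to 0.683. Its wildtype mean of 48.9 lay just above the brightness filter, and hypomorph replicate 1 stood apart from the other 3 arrays. The suffixes s and x mark probe sets whose probes can match more than 1 transcript, so the levels of the brighter pair may include sequence shared with other genes. The same limit holds for every other probe set with these suffixes, among them the brightest of Ccl6, Cxcl16, Ccr9 and Dpp4. Probe sets of 1 gene are not independent measurements.

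The Cxcl1 call depended on single arrays. Without hypomorph replicate 1 the difference of 1457644_s_at was 0.72 (limma, adjusted p = 0.122), and without wildtype replicate 2 it was 0.66 (adjusted p = 0.142). Without hypomorph replicate 2 or wildtype replicate 1 the call was kept, at 1.08 and 1.14. The call also ended with all probe sets tested (adjusted p = 0.145), without an intensity trend in the variance (0.110) and for the mean of the 3 probe sets of the gene (difference 0.73, adjusted p = 0.0608). The adjusted p of this probe set ranged from 2.95e-07 to 0.145 over 13 alternatives, and the difference was above 0 in all 13.

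Cxcl2, the neighbour of Cxcl1 on chromosome 5 with the same 14-base run before its start, was too dim to test. It read 16.6 and 23.8 in hypomorph and 24.35 and 11.05 in wildtype, so the groups overlapped. Their receptor gene Cxcr2 was also below the filter, at 40.8 and 26.6 against 19.5 and 25.7. Myeloid markers, whose cells can make Cxcl1 and respond to it, were present in both groups. Their summed intensity over 10 genes was 15390 and 16562 in hypomorph and 14960.1 and 15302 in wildtype, and 7700.9 and 8372 against 7092 and 7057 without Lyz2, the brightest of them. Of the 7 tested, Csf1r (0.23) and Adgre1 (0.29) read higher without overlap, and Fcer1g (0.093) and C1qb (0.043) had differences above 0. Cd14 (-0.079), Lyz2 (-0.021) and C1qa (-0.064) had differences below 0, and none of the 7 was called. Itgam, Cd68 and Itgax were below the filter, and the part of these cells in the Cxcl1 result was not tested.

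**Figure D2:**
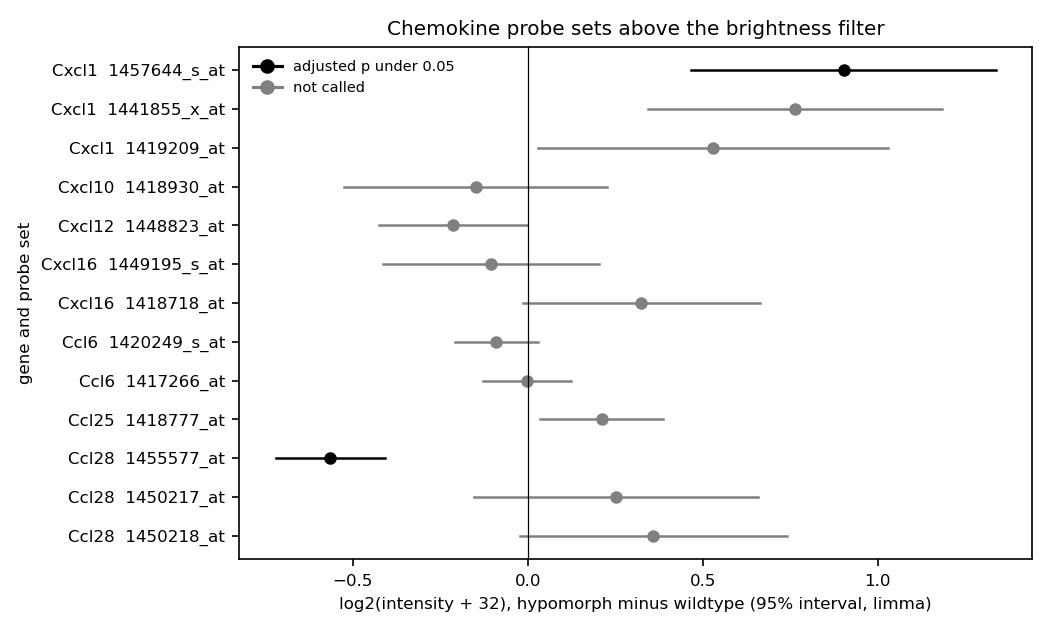
Log2 difference, hypomorph minus wildtype, of the 13 tested chemokine probe sets with 95% intervals from limma (n = 2 arrays per group), called probe sets in black. The Cxcl1 probe sets lie at 0.53 to 0.90, and the Ccl28 probe sets fall on both sides of 0.

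Ccl28, the mucosal plasma cell attractant, gave the clearest difference and also a disagreement between its probe sets. The brightest, 1455577_at, read 2579.7 and 2552 in hypomorph and 3861 and 3758 in wildtype. The groups were far apart compared with the spread within each, and the difference was -0.56 (SE 0.070, 95% interval -0.72 to -0.41, limma adjusted p = 0.00183). The dimmer probe set 1450217_at read 97.2 and 127 against 99.0 and 78.3, with overlapping groups and a difference of 0.25 (SE 0.18, limma adjusted p = 0.467). The dimmest, 1450218_at, read 70.9 and 59.4 against 39.4 and 48.1, so here both hypomorph arrays lay above both wildtype arrays (difference 0.36, 95% interval -0.023 to 0.74, limma adjusted p = 0.270). This probe set was the tested one nearest the brightness filter, and its wildtype mean of 43.7 lay below the equivalent intensity. The intervals of the brightest probe set and of the other 2 did not overlap. Which parts of the transcript the 3 probe sets measure is not stated.

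The fall of 1455577_at was called in 12 of 13 alternatives, with differences from -0.58 to -0.54. The exception was the fit without an intensity trend (limma, adjusted p = 0.0750, within a range of 7.04e-10 to 0.0750). Averaging the 3 probe sets of the gene removed the difference (0.016, adjusted p = 0.947), because the dim probe sets went the other way. Ccr10, the Ccl28 receptor gene of plasma cells, read at most 3.58 on any array, and Ccr3, a further receptor for Ccl28, read at most 9.45. Plasma and B cell markers were measured in both groups, with sums over 5 genes of 7265 and 6712 against 6599 and 6427, most of which was Jchain; the other 4 summed to 1079.6 and 941 against 994 and 873. Of the 5 genes 0 were called (limma; 1 at an unadjusted p under 0.05, Cd79a at 63.4 and 84.0 against 113 and 118, a difference of -0.49). Mzb1 also read lower without overlap, at 36.0 and 49.6 against 52.7 and 58.3. The other 3 went the other way, with differences of 0.32 for Ms4a1, 0.097 for Cd79b and 0.098 for Jchain, the last without overlap. Of the 7 enteroendocrine markers 4 fell, namely Chgb, Gcg, Gip and Tac1. Chga (-0.16), Cck (-0.22) and Sct (0.12) were not called. The 7 summed to 8947 and 9419 against 12555 and 11732, and the part of these cells in the Ccl28 result was not tested.

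**Figure D3:**
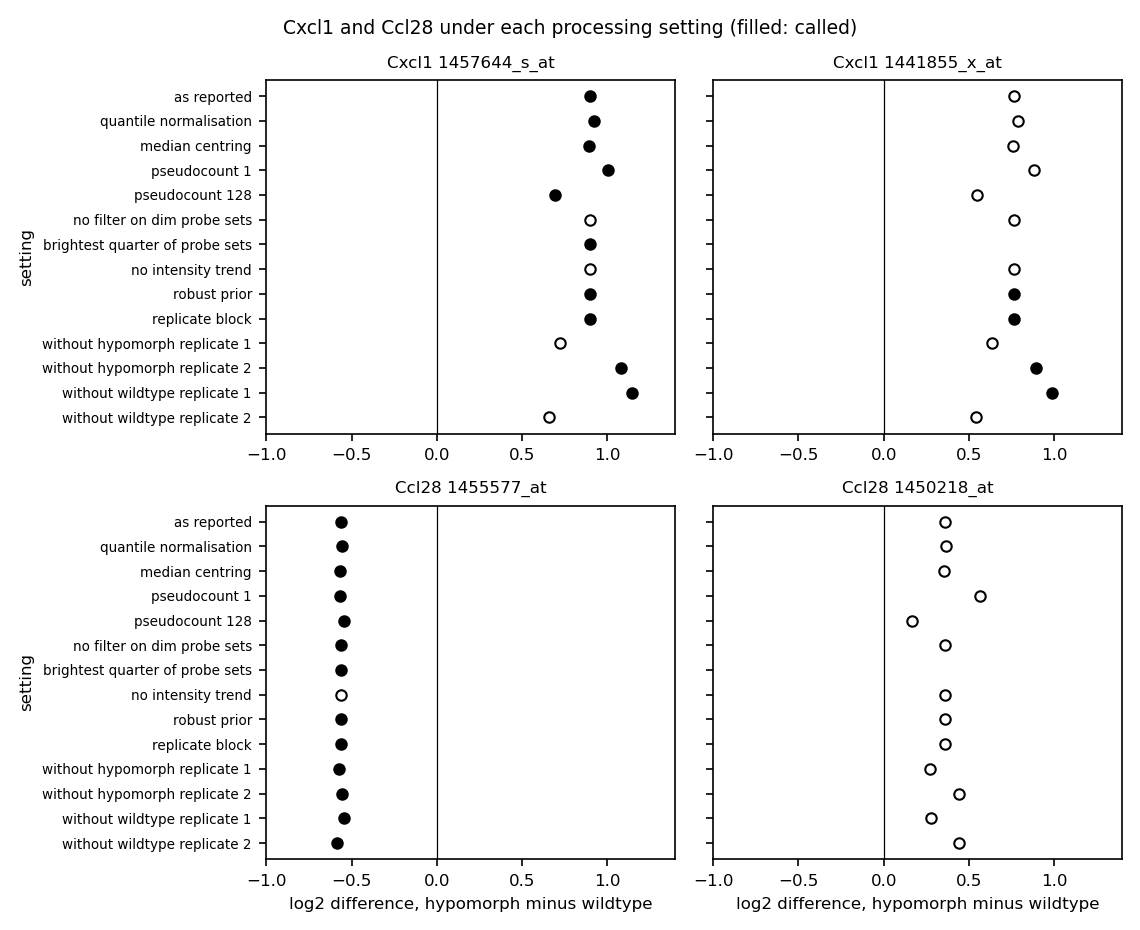
Log2 difference, hypomorph minus wildtype, of 2 Cxcl1 and 2 Ccl28 probe sets under each processing setting, filled where called at an adjusted p under 0.05. Ccl28 1455577_at stays near -0.56 in each setting, while Cxcl1 1457644_s_at moves between 0.66 and 1.14 and is called in some settings only.

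Ccl25, the chemokine that recruits lymphocytes to the small intestine, read 2871 and 2934 in hypomorph and 2612 and 2398 in wildtype on 1418777_at. Both hypomorph arrays were higher, but the difference of 0.21 (SE 0.078, 95% interval 0.036 to 0.39) did not pass after adjustment over all probe sets (limma, adjusted p = 0.169). Its dim probe set 1458277_at, the member just outside the brightness filter, read 28.3 and 30.45 against 46.6 and 50.4, lower in hypomorph without overlap, and was not tested. The mean of both probe sets gave a difference of -0.090, so the direction for the gene depends on the probe set. Its receptor gene Ccr9 read 220.3 and 195 against 152 and 131, also without overlap (difference 0.47, SE 0.16, limma adjusted p = 0.143). Enterocytes are a source of Ccl25, and the 7 enterocyte markers on the array summed to 10258 and 10505 against 4118 and 4446. Their part in the Ccl25 values was not tested.

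Ccl6, a CC chemokine known from myeloid cells that binds Ccr1, was measured by bright probe sets in every sample. On 1420249_s_at it read 6959 and 6961 in hypomorph and 7512 and 7309 in wildtype, a difference of -0.090 (SE 0.053, limma adjusted p = 0.373). On 1417266_at it read 6829 and 6621 against 6579 and 6896, with a difference of -0.0025 (95% interval -0.13 to 0.12, limma adjusted p = 0.986). The sign of this last value turned with quantile normalisation (0.013). The intervals of both probe sets reached no further than about 0.21 from 0, given the spread of these 4 arrays alone. That spread may be technical, and array signals near the top of the scale may be compressed. Ccr1 itself read 91.0 and 89.7 against 124 and 97.0 (difference -0.21, limma adjusted p = 0.517).

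Cxcl12, the homeostatic ligand of Cxcr4 and Ackr3 that stromal cells make in abundance, read 1624 and 1482 in hypomorph and 1724 and 1887 in wildtype on 1448823_at. Both hypomorph arrays were lower, and the difference of -0.21 (SE 0.095, 95% interval -0.43 to -0.0017) was not called (limma, adjusted p = 0.241). Its other probe sets were below the filter: 1417574_at read 31.95 and 36.4 against 42.9 and 33.1, and 1439084_at read 1.00 in both hypomorph samples against 1.17 and 4.30 in wildtype. Cxcr4 was dim as well, at 18.1 and 17.5 against 29.2 and 29.4. Ackr3, which takes up Cxcl12 without classical signalling, read 525 and 684 against 667 and 746 (difference -0.22, limma adjusted p = 0.415). The fibroblast and matrix markers summed to 22454 and 23794 in hypomorph and 20398 and 20265 in wildtype. Col1a1, Col1a2 and Mgp rose, and the other 5 were not called. Of these, Col3a1 (0.22, without overlap of the groups), Dcn (0.10) and Lum (0.033) had differences above 0, and Pdgfra (-0.11) and Pdgfrb (-0.0049) below. The part of these cells in the Cxcl12 values was not tested.

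Cxcl16, made as a membrane protein that both binds Cxcr6 and takes up oxidised lipoprotein, gave values that differed by probe set. On 1449195_s_at it read 465 and 385 in hypomorph and 461 and 454 in wildtype, with overlapping groups (difference -0.11, SE 0.14, limma adjusted p = 0.715). On 1418718_at it read 486 and 414 against 389.6 and 318, without overlap (difference 0.32, SE 0.15, limma adjusted p = 0.260). Neither was called, and the mean of both was 0.11. Cxcr6 read between 9.80 and 17.7 on all arrays, below the filter.

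Cxcl10, the interferon-induced attractant of T cells, read 89.2 and 109 in hypomorph and 119 and 107 in wildtype. The groups overlapped, and the difference was -0.15 (95% interval -0.52 to 0.23, limma adjusted p = 0.660). The receptor gene Cxcr3 read 87.1 and 79.3 against 77.4 and 82.0 (difference 0.044, limma adjusted p = 0.910; -0.0043 without hypomorph replicate 1).

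Cx3cl1, the membrane-tethered ligand of Cx3cr1, had 4 probe sets, all below the filter. The brightest, 1421610_at, read 22.5 and 37.7 against 53.6 and 14.3, with the wildtype arrays on either side of the hypomorph arrays. The others read 34.0 and 24.9 against 13.4 and 35.3 on 1415803_at, 16.3 and 16.3 against 16.9 and 17.3 on 1441884_x_at, and 10.25 and 2.81 against 7.33 and 3.39 on 1415804_at. Cx3cr1, the receptor of resident macrophages, was above the filter at 271 and 349 against 301 and 229.7, with overlapping groups (difference 0.20, limma adjusted p = 0.555). Ccl20, the ligand of Ccr6, was listed at 1.00 in both hypomorph samples and at 1.85 in both wildtype samples. A value of exactly 1.00 was listed for 901 to 1048 probe sets per array, so these readings lie near the bottom of the scale and no order is read from them. Ccr6 read 27.6 to 51.9 and was not tested.

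Genes around the chemokines are given by their brightest probe set. Their counts stand beside 4.23% of all tested genes called and 20.5% of all tested probe sets at an unadjusted p under 0.05 (limma). Of 22 listed chemokine receptors 20 were found and 8 passed the filter, and 0 were called (limma; 2 at an unadjusted p under 0.05, Ccr9 and Ackr4, the scavenger of Ccl25, at 57.3 and 35.3 against 82.4 and 74.4). The other receptors named by their p were Ackr1 and Ackr3, the latter given above with Cxcl12. Ackr1 read 422 and 277 against 262 and 276 (difference 0.32, limma adjusted p = 0.372). The median difference of the 8 receptors was -0.085, against -0.024 over all genes tested.

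Among 26 other chemokines 25 were found and 8 were bright enough to test, of which 1 rose and 1 fell. Ccl5, made by T and NK cells, read 1434 and 1284 in hypomorph and 839.9 and 841 in wildtype (difference 0.67, SE 0.10, limma adjusted p = 0.00704). Beside it the granzyme genes Gzma and Gzmb rose, and the T and NK cell markers summed to 2993 and 2879 against 2195 and 1836. Without the 2 granzyme genes the other 7 markers summed to 784 and 814 against 1023 and 748. The tested Cd3g, Cd8a, Itgae and Cd7 had differences of 0.042, 0.083, -0.088 and -0.42 and were not called, and Cd3e, Cd8b1 and Nkg7 were below the filter. The part of these cells in the Ccl5 result was not tested. Cxcl13, the B cell attractant of lymphoid follicles, read 1246 and 1307 against 1964 and 1851, and fell by 0.57 (SE 0.091, limma adjusted p = 0.00841). Both calls ended without an intensity trend (limma, adjusted p = 0.0624 for Ccl5 and 0.0806 for Cxcl13) and held in the other alternatives that left out an array or changed the scale or filter. Pf4 (difference 0.38, limma adjusted p = 0.0966) and Ccl8 (-0.41, adjusted p = 0.177) were not called. The neutrophil chemokines Cxcl3 and Cxcl5 stayed at or below 8.93 on all arrays. Cxcl9, which like Cxcl10 attracts T cells through Cxcr3, read 78.2 and 106 against 78.1 and 99.8, with overlapping groups (difference 0.034, limma adjusted p = 0.942).

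**Figure D4:**
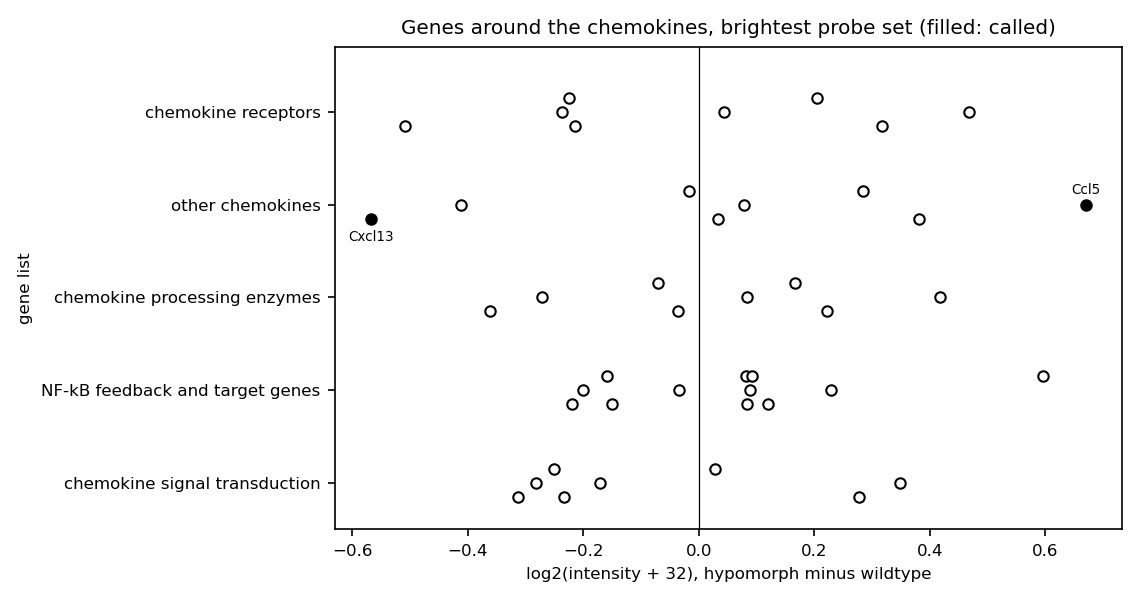
Log2 difference, hypomorph minus wildtype, of tested genes in 5 lists around the chemokines, 1 point per gene at its brightest probe set, with called genes filled and named. The called genes are Ccl5 at 0.67 and Cxcl13 at -0.57, both among the other chemokines.

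NF-kB is one of the pathways that switch chemokines on. Of 20 listed NF-kB feedback and target genes 12 were tested and 0 were called (limma; 2 at an unadjusted p under 0.05). Nfkbia, the inhibitor that NF-kB induces to restrain itself, read 8256 and 8552 in hypomorph and 9524 and 9242 in wildtype (difference -0.16, limma adjusted p = 0.120). Bcl3, a nuclear cofactor of NF-kB, read 312 and 304 against 178 and 209 (0.60, adjusted p = 0.0622). Birc3 and Nfkbie had differences of -0.20 and -0.22, and the cytokine genes Tnf, Il1b and Il6 were all below the filter. The median of the 12 was 0.082.

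Enzymes that process chemokines were not called in 8 of 8 tested cases (limma; 2 at an unadjusted p under 0.05). Dpp4, which clips and inactivates chemokines such as Cxcl10 and Cxcl12, read 961 and 1017 against 653 and 819 (difference 0.42, limma adjusted p = 0.106). Adam17, which sheds Cx3cl1 and Cxcl16 from the membrane together with Adam10, read 485 and 508 against 567 and 648 (-0.27, adjusted p = 0.261), and Ctss and Cpn1 had differences of 0.17 and -0.36. Of 8 tested genes of chemokine signal transduction 0 were called (limma; 2 at an unadjusted p under 0.05), among them the arrestin gene Arrb1 at 0.35 (adjusted p = 0.0817) and Rgs2, which shortens G protein signals, at -0.28 (adjusted p = 0.109). Gnai3 and Arrb2 had differences of -0.17 and -0.31.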

How the data were processed

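The RNA of laser-captured Paneth cells was amplified and biotin-labelled, per the labels' protocols, and hybridised to 1 array per sample (4 in all). The authors deposited 1 linear intensity per probe set and array; its scaling, background correction and probe summary are not stated. Trimmed array means agreed to within 1.02 times, so the deposited intensities were used as they stand. The array held 45101 probe sets; 64 controls were dropped, and 34945 of the rest had 1 symbol in the platform annotation.

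Tests used log2(intensity + 32) and the 22519 probe sets at or above the median of the mean log2 values (6.32). limma 3.58.1 in R 4.3.3 fitted the group alone (lmFit, and eBayes with an intensity trend; 2 residual and 7.81 prior degrees of freedom). Tests were two-sided, p-values were adjusted by Benjamini-Hochberg over every tested probe set, and an adjusted p under 0.05 was a call. The 95% intervals are not adjusted for the number of probe sets, so some exclude 0 without a call. The fit was tested on simulated data. The number of arrays limits the precision.

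Members and lists were chosen with earlier results of these data known. All member probe sets are reported, and 1 gene list is not reported here. Per list up to 4 genes are named, by size if called and else by the lowest unadjusted p, beside all receptors of the members. Cxcl3, Cxcl5, Cxcl9, Reg3g, Adam10, the cytokine genes, granzymes and other single markers were named after their values were seen. Alternatives were median centring, quantile normalisation, pseudocounts of 1 and 128, no or a stricter brightness filter, eBayes without the trend or with a robust prior, a replicate block, averaged probe sets and the omission of each array, where the lone array was taken to vary like the other group. Upstream sequences came from RefSeq (GRCm38.p6), and their motifs were chosen with the values known.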

Additional observations from a re-analysis of the deposited data

How the results depend on the processing

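With 2 arrays per group the test leans on the variance pooled over probe sets, and calls near the threshold moved with the settings. The 2 calls among chemokine probe sets became 1 with no filter on dim probe sets, 3 with a robust prior and 0 without an intensity trend (limma; 6 of 13 had an unadjusted p under 0.05 in the fit with the trend). Leaving out each array in turn gave 1 to 4: 1 without hypomorph replicate 1 or wildtype replicate 2, 4 without hypomorph replicate 2 and 3 without wildtype replicate 1. Over all probe sets the 836 calls became 303 with no filter, 556 with the stricter filter and 323 without an intensity trend, and ranged from 500.0 to 1648 when arrays were left out. Quantile normalisation, median centring and the other pseudocounts kept both chemokine calls and their directions. Signs turned for Ccl6 1417266_at with quantile normalisation (0.013) and without arrays (-0.036 to 0.031), for Cxcl16 1449195_s_at without arrays (-0.23 to 0.021) and for Cxcr3 without arrays (-0.0043 to 0.093), and none of these was called. Of the 9 member probe sets too dim to test, the sign also turned in at least 1 alternative for 5: Cx3cl1 1421610_at, 1415803_at and 1415804_at, Cxcl2 1449984_at and Cxcl12 1417574_at. With probe sets averaged per gene the sign turned for Cxcl16 (0.11), Ccl25 (-0.090), Ccl28 (0.016) and the untested Cx3cl1 (0.033). That mean gives each probe set equal weight, so the dim probe sets of Ccl25 and Ccl28 counted as much as the bright ones. Both Cxcl16 probe sets were tested and of similar brightness, with differences of -0.11 and 0.32. All Cx3cl1 probe sets were below the filter. With the replicate number as a block (replicate block) 4 chemokine probe sets and 3206 of all probe sets were called. Same-numbered arrays deviated together with a correlation of 0.26 across probe sets, but no label says that a number marks a shared animal or batch.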
